A study of Mus musculus and Homo sapiens with 8 samples.

Results

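G2/M and mitosis genes are the genes whose messenger RNA accumulates late in the cell cycle and whose products carry a cell into and through division. The 38 members described here were given as a list of human symbols, and in the mouse tables the same symbols with only the first letter capital were taken. All 38 were found among the 20296 genes of the human tables, and 37 among the 17097 genes of the mouse tables. The exception was Kif4a, which mouse annotation names Kif4, so that gene is given apart. All 38 and all 37 passed the filter on low counts, among 16529 human and 14598 mouse genes tested.

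The study measured RNA by sequencing in cells with ANP32B intact, knocked out or knocked down; ANP32B is an acidic nuclear phosphoprotein known as a histone chaperone. The mouse samples were LSK cells from the bone marrow of C57BL/6 animals, either wild type (WT, n = 2 libraries) or Anp32b-KO (n = 2 libraries). LSK cells are sorted as lineage-negative, Sca-1-positive and c-Kit-positive marrow cells, which include stem cells and multipotent progenitors of blood. The labels give neither the deleted stretch of Anp32b nor the age of the animals. The human samples were KU812 cells, an established chronic myelogenous leukemia line, with the control hairpin shNC (n = 2 libraries) or the hairpin shANP32B (n = 2 libraries), so that both human groups carried a hairpin and stem from 1 cell line. The labels name 1 hairpin against ANP32B, with no further hairpin to set beside it, and do not say whether replicates are separate animals or cultures. Each p-value is thus set against library-to-library spread only, and that spread may be technical.

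Entry into mitosis is driven by the kinase CDK1 with its cyclins, B-type cyclins above all, after the phosphatase CDC25C removes the inhibitory phosphates. Aurora, Polo-like and checkpoint kinases then build the spindle and watch that every kinetochore is attached. The anaphase-promoting complex (APC/C), with its activator CDC20, ends mitosis by marking cyclins and securin for destruction. Many of their promoters carry a short element called CHR (cell cycle genes homology region), which the MuvB complex binds. MuvB forms a repressor with pocket proteins in resting cells and an activator with B-MYB and FOXM1 in G2. Nearby CCAAT boxes bind the factor NF-Y. In the LSK gate, long-term stem cells are mostly quiescent while multipotent progenitors divide often.

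Mouse promoter sequence shows what these genes share. RefSeq promoter windows (GRCm38.p6, 250 bases before to 50 after the gene's start) were found for 30 members, 32 windows in all. Those not matched were Aurkb, Ccna2, Cdc25c, Dlgap5, Foxm1, Kif20a, Kif4a and Tpx2. The CHR element was searched as TTTGAA on both strands, its variant as TTCGAA, and the CCAAT box as CCAAT on both strands, so that TTCAAA and ATTGG also count. Of matches to different motifs in the member windows, 1 pair overlapped. The CHR element was present in 24 of the 32 windows (75.0%), against 17.9% of all 32851 windows. It was present in 38 of 78 windows (48.7%) of 4 further mitosis lists (kinetochore, condensin and cohesin, spindle, entry kinases and phosphatases) and in 8 of 45 windows (17.8%) of the G1/S and DNA replication list. A CCAAT box was present in 25 of the 32 windows (78.1%), against 37.4% of all windows, and at least 2 were present in 17 (53.1%), against 11.7%. These 4 lists and the G1/S list also held it more often than all windows did, in 59.0% and 57.8% of theirs. A window held both a CHR element and a CCAAT box in 65.6% of cases, against 32.1% in the 4 further lists, 6.67% in the G1/S list and 6.95% of all windows. Of the 31 CHR matches 22 began between 30 bases before and 40 bases after the start, while 40 of the 60 CCAAT matches began within the 100 bases upstream of it.

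The stretches below run from 100 bases before to 30 bases after the start, 5′ to 3′ on the gene's own strand, for 8 members chosen to show the cyclins, CDK1, the kinases, a motor and the APC/C. Capitals mark CHR, CHR variant and CCAAT matches. They lie at chr10:69352883-69353012 (Cdk1, minus strand), chr9:70421525-70421654 (Ccnb2, minus), chr13:100786457-100786586 (Ccnb1, minus), chr2:127831830-127831959 (Bub1, minus), chr9:83834589-83834718 (Ttk, plus), chr19:37376282-37376411 (Kif11, plus), chr4:118437314-118437443 (Cdc20, minus) and chr2:164769829-164769958 (Ube2c, plus).
Cdk1: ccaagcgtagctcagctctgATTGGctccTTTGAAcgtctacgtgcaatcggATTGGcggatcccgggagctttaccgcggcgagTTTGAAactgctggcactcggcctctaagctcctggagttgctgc
Ccnb2: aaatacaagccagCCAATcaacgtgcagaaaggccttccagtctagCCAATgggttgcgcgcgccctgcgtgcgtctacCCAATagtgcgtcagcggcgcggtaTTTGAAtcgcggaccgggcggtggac
Ccnb1: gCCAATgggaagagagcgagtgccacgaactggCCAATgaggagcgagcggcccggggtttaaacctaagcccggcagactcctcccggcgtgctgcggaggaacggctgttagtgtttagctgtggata
Bub1: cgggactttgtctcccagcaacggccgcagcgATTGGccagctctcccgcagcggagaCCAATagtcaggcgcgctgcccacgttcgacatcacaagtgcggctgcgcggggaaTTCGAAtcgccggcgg
Ttk: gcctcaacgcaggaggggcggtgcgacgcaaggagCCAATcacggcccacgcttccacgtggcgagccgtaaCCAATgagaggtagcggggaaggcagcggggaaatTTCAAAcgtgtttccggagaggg
Kif11: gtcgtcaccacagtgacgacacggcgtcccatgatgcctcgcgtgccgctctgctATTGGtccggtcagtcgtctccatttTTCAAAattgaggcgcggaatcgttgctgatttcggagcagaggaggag
Cdc20: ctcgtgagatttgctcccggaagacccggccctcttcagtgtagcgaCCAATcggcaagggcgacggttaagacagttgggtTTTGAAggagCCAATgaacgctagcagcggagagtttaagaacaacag
Ube2c: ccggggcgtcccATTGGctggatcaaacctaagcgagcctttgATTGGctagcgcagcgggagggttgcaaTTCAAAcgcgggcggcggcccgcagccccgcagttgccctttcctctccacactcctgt
Ccnb2 carries 3 CCAAT boxes followed by a CHR element, and Ttk, Kif11 and Ube2c carry the same order with the element as TTCAAA. Cdk1 carries 2 CHR elements, each downstream of a CCAAT box. Cdc20 has a CCAAT box on each side of its CHR element. Bub1 has 2 CCAAT boxes and the variant TTCGAA, and Ccnb1 has 2 CCAAT boxes and no match to either form of the element in this window. A match is a description of these letters only. The median log2 fold change in Anp32b-KO LSK cells was -0.28 in the 22 members with a CHR element and -0.24 in the 8 with a window and none.

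**Figure D1:**
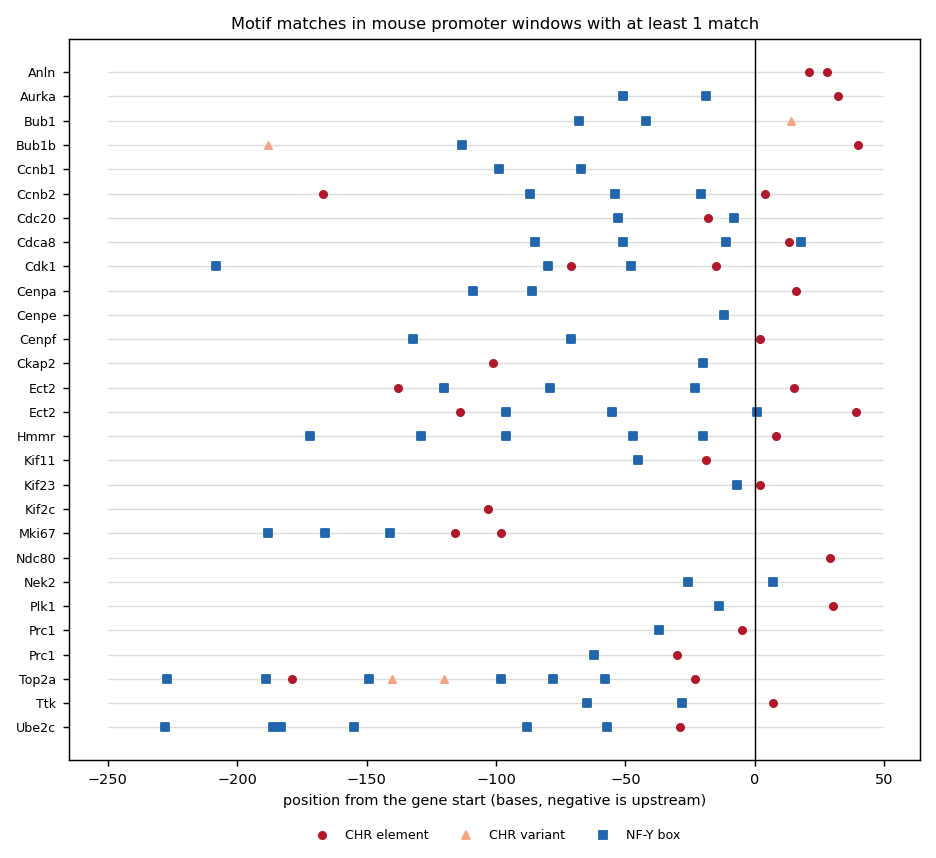
Positions of motif matches in the mouse promoter windows of the members that have at least 1 match, 1 line per window (Ect2 and Prc1 have 2 windows). The horizontal axis is the distance in bases from the gene's start, negative upstream. CHR elements (circles) gather around the start, where 22 of 31 begin between -30 and 40, and CCAAT boxes, drawn as NF-Y boxes (squares), lie mostly within 100 bases upstream.

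The 4 mouse libraries held 10549358 to 15683480 counts each and the 4 human libraries 24416691 to 28209409. Levels are counts-per-million (CPM) on edgeR's TMM-scaled library sizes, and 3 counts equal between 0.107 and 0.286 CPM depending on the library. The targeted gene Anp32b was read at 794 and 730 CPM in WT, and the KO libraries still had 201 and 249 CPM (log2 fold change -1.76, SE 0.17, adjusted p = 0.148, edgeR quasi-likelihood test). ANP32B fell from 250 and 286 CPM with shNC to 40.4 and 38.2 CPM with shANP32B (log2 fold change -2.77, SE 0.12). The LSK genes Kit, at 335 to 399 CPM, and Ly6a (Sca-1), at 37.8 to 60.2 CPM, were read in every LSK library, and the basophil, eosinophil and mast cell list summed to 5768 to 6650 CPM in KU812. The first WT library stood apart. Immunoglobulin genes took 1.44% of its counts against 0.322% to 0.655% in the other LSK libraries, and the ribosomal RNA gene Rn18s-rs5 took 0.0293% against 0.3% to 0.851%. The early response gene Egr1, which is on the stem cell marker list, was read there at 670 CPM against 1946 to 2716 CPM. The other 13 genes of that list summed to 745 and 775 CPM in the WT libraries and to 906 and 865 CPM in the KO libraries.

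In KU812 cells many mitotic genes fell with ANP32B knocked down. Of 38 members 19 fell and 0 rose (adjusted p under 0.05 by Benjamini-Hochberg over all genes tested, from edgeR's quasi-likelihood test), where 9.06% of all genes tested were lower and 7.53% higher. The remaining 19 also had log2 fold changes below 0, as did 49.6% of all genes tested. The median over the members was -0.39, a median change of -23.8% in CPM, beside a median of 0.0041 over all genes tested. In 35 of 38 members both shANP32B libraries lay below both shNC libraries, as did 28.9% of all genes tested. The members together took 0.472% and 0.474% of the counts with shNC and 0.361% and 0.385% with shANP32B. In RNA from many cells, fewer cells in G2 and mitosis and less RNA of these genes per cell cannot be told apart. Erythroid markers moved alongside, with 7 of 11 tested called lower and sums of 4784 and 5260 CPM with shNC against 3203 and 3356 CPM with shANP32B. Myeloid progenitor markers summed to 92.7 and 82.6 CPM with shNC and 18.1 and 17.4 CPM with shANP32B, with 1 of 2 tested called lower. Of 9 neutrophil and monocyte markers 4 were called higher (median 0.92), and of 5 megakaryocyte markers 1 higher and 1 lower. The neutrophil and monocyte sums overlapped, at 147.1 and 124.6 CPM with shNC and 147.5 and 134.9 CPM with shANP32B. The megakaryocyte sums were 1933 and 1750 CPM with shNC and 2257 and 2057 CPM with shANP32B. Of 11 basophil, eosinophil and mast cell markers 3 were called lower and 1 higher (median 0.0013). Their sums were 6650 and 6021 CPM with shNC and 5768 and 5841 CPM with shANP32B. The part of these in the result was not tested.

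**Figure D2:**
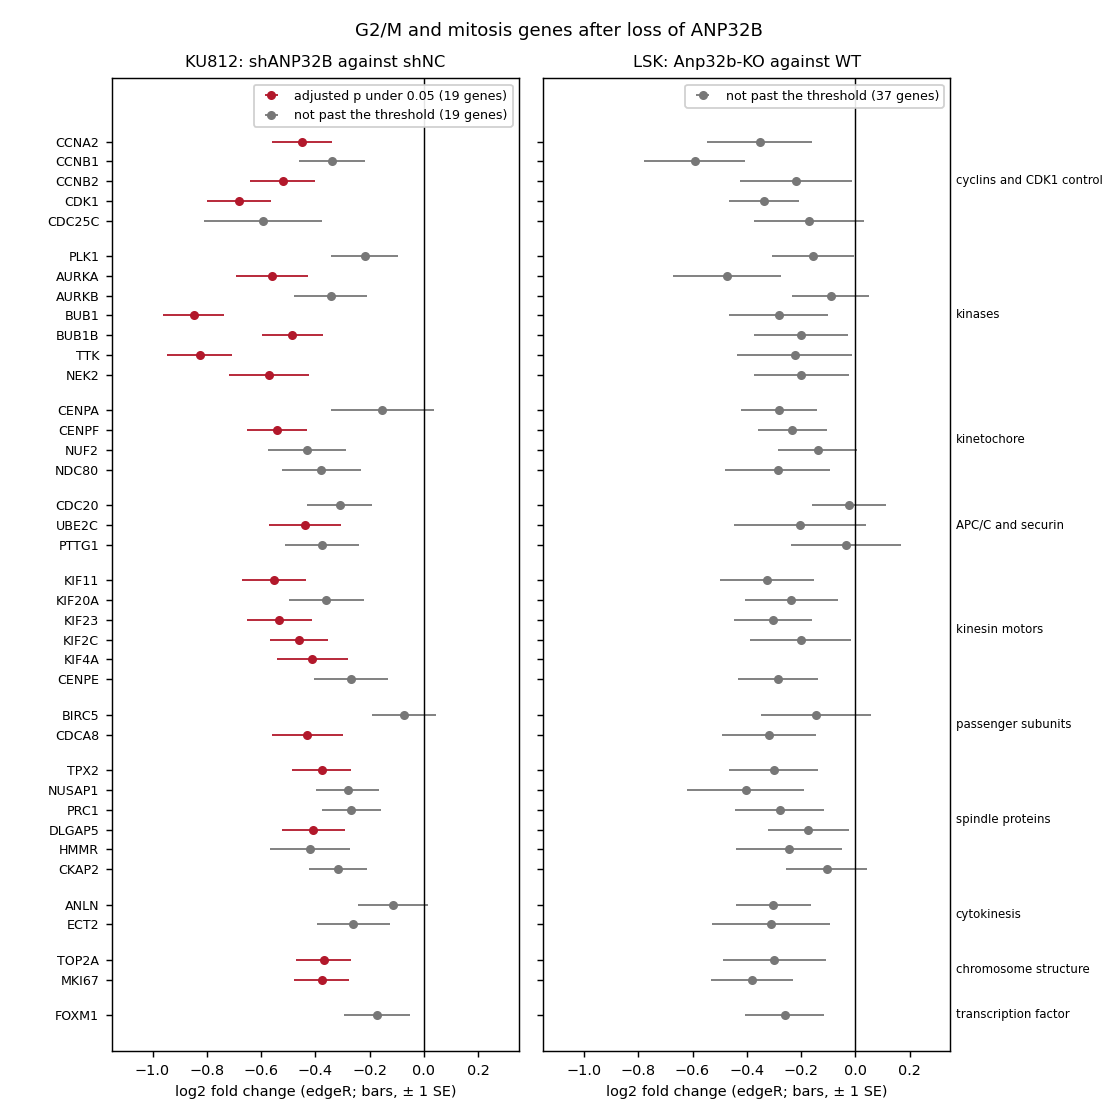
Log2 fold change of each member, ordered by role, in KU812 (left, shANP32B against shNC, 2 libraries each) and LSK cells (right, Anp32b-KO against WT, 2 libraries each). Points are edgeR estimates and bars 1 SE on each side, and red marks an adjusted p under 0.05. In KU812, 19 members are red and all 38 points lie left of 0, with BUB1 and TTK farthest left, and in LSK cells all 37 points lie left of 0 and none is red.

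The mitotic cyclins and CDK1 control genes were among the clearest. CDK1, the kinase that drives mitotic entry, was read at 99.96 and 99.8 CPM with shNC and at 59.2 and 65.4 CPM with shANP32B, 99.9 ± 0.14 against 62.3 ± 4.36 CPM (SD, n = 2 each). Both knockdown libraries were low and the groups did not overlap (log2 fold change -0.68, SE 0.12, adjusted p = 0.00184). CCNB2, the Golgi-linked B-type cyclin, stood at 85.01 and 90.5 CPM with shNC and at 59.2 and 63.1 CPM with shANP32B, again with no overlap (-0.52, SE 0.12, adjusted p = 0.00957). CCNA2, the cyclin of S phase and G2, fell too (-0.45, adjusted p = 0.0145). CCNB1, the main cyclin of mitotic entry, had 94.3 and 106 CPM with shNC and 83.9 and 74.5 CPM with shANP32B, and its value of -0.34 did not pass (adjusted p = 0.0762). CDC25C, which activates CDK1, was the lowest of these at 8.80 to 15.4 CPM. Its value of -0.59 had an SE of 0.22 and did not pass either (adjusted p = 0.0791).

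Of the 7 mitotic and checkpoint kinase genes 5 fell. The largest falls of all members belonged to BUB1 and TTK, which encode spindle checkpoint kinases. BUB1 was read at 136 and 137 CPM with shNC and at 74.7 and 77.0 CPM with shANP32B (137 ± 0.592 against 75.9 ± 1.58 CPM, SD, n = 2 each). Its level dropped by 44.5% (log2 fold change -0.85, SE 0.11, adjusted p = 2.63e-04). TTK, also called MPS1, was read at 120 and 105 CPM with shNC and at 63.4 and 63.7 CPM with shANP32B (-0.83, SE 0.12, adjusted p = 5.56e-04). In both genes the knockdown libraries were nearly equal and far below the controls. BUB1B, which encodes the checkpoint protein BUBR1, went from 112 and 111 CPM to 78.7 and 80.6 CPM (-0.49, SE 0.11, adjusted p = 0.0101). AURKA, the Aurora kinase of the spindle poles, and NEK2, a centrosome kinase, fell by 0.56 and 0.57 on the log2 scale (adjusted p = 0.0115 and 0.0176). AURKB, the catalytic subunit of the chromosomal passenger complex, and PLK1, the Polo-like kinase, stood at -0.34 and -0.22 and did not pass (adjusted p = 0.102 and 0.255).

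Of the 4 kinetochore genes 1 fell. CENPF, a large protein of the outer kinetochore, was read at 396 and 374 CPM with shNC and at 240 and 289 CPM with shANP32B (-0.54, SE 0.11, adjusted p = 0.0053). NUF2 and NDC80 encode partners in the complex that holds microtubules. NUF2 stood at 40.3 and 39.3 CPM with shNC and 27.2 and 31.9 CPM with shANP32B, and at an adjusted p of 0.0554 it did not pass (-0.43, SE 0.14). NDC80 had a log2 fold change of -0.38 (adjusted p = 0.0957). CENPA, the centromeric histone H3 variant, was 1 of 3 members with overlapping groups, at 15.2 and 19.98 CPM with shNC and 16.5 and 15.1 CPM with shANP32B.

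Among the genes of the APC/C and its targets, UBE2C fell. Its call was lost on library totals and without the second shNC or either shANP32B library. UBE2C encodes the ubiquitin-conjugating enzyme of the complex, and it was read at 68.8 and 83.7 CPM with shNC and at 53.6 and 58.9 CPM with shANP32B (-0.44, SE 0.13, adjusted p = 0.0386). Securin, encoded by PTTG1, was read at 50.03 and 49.3 CPM against 41.1 and 35.4 CPM (-0.38, adjusted p = 0.0757). CDC20, the activator of the complex and a carrier of the checkpoint signal, stood at -0.31 (adjusted p = 0.0971). In both of these the groups did not overlap, although the test was not passed.

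Of the 6 kinesin motor genes 4 fell. KIF11, or Eg5, which pushes the spindle poles apart, was read at 120 and 123 CPM with shNC and at 76.9 and 88.7 CPM with shANP32B (-0.55, SE 0.12, adjusted p = 0.00643). KIF23, the motor of the centralspindlin complex, went from 86.9 and 81.7 CPM to 58.6 and 57.9 CPM (-0.53, SE 0.12, adjusted p = 0.00845). KIF2C, or MCAK, which takes microtubule ends apart, went from 167 and 173 CPM to 122 and 125 CPM (-0.46, SE 0.11, adjusted p = 0.0103). Each of the 3 had its knockdown libraries well below its controls. The chromokinesin gene KIF4A fell by 0.41 on the log2 scale (adjusted p = 0.0454), a call lost under the same settings as that of UBE2C. KIF20A, which works in cytokinesis, and CENPE, which carries chromosomes to the spindle equator, stood at -0.36 and -0.27 and did not pass.

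Spindle proteins came next. TPX2, which activates Aurora A, was read at 167 and 177 CPM with shNC and at 133 and 132 CPM with shANP32B (-0.38, SE 0.11, adjusted p = 0.0282). DLGAP5, a protein of kinetochore fibres, was read at 132 and 141 CPM against 95.8 and 110 CPM (-0.41, SE 0.12, adjusted p = 0.0296). These were the 2 of 6 spindle genes that fell, and both calls were lost on library totals and without either shANP32B library. CKAP2 stood at 196 and 198 CPM against 152 and 164 CPM and did not pass (-0.32, adjusted p = 0.0575), nor did HMMR (-0.42), NUSAP1 (-0.28) and PRC1 (-0.27).

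Of the subunits that carry Aurora B, CDCA8 (borealin) fell from 72.4 and 89.1 CPM to 60.3 and 59.6 CPM (-0.43, SE 0.13, adjusted p = 0.039). BIRC5 (survivin) overlapped between groups, at 155 and 185 CPM against 156 and 167 CPM (-0.073, adjusted p = 0.731). The difference between these partners was not tested, and the CDCA8 call was lost on library totals and without the second shNC or either shANP32B library. The cytokinesis genes ECT2 and ANLN stood at -0.26 and -0.11, and ANLN also overlapped, with 73.3 and 70.5 CPM against 60.3 and 72.7 CPM. ECT2, the exchange factor that starts the contractile ring, was read at 43.9 and 41.5 CPM against 34.96 and 36.4 CPM.

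Both genes of chromosome structure fell. TOP2A, the topoisomerase that untangles chromatids, was read at 669 and 690 CPM with shNC and at 490 and 562 CPM with shANP32B (-0.37, SE 0.10, adjusted p = 0.0223). MKI67, the proliferation marker Ki-67, was read at 472 and 457 CPM against 339 and 377 CPM (-0.38, SE 0.10, adjusted p = 0.0208). FOXM1, the transcription factor of this program, was read at 74.6 and 83.6 CPM against 72.6 and 67.8 CPM. Its groups lay close together, and its value of -0.17 (SE 0.12) did not pass (adjusted p = 0.376).

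**Figure D3:**
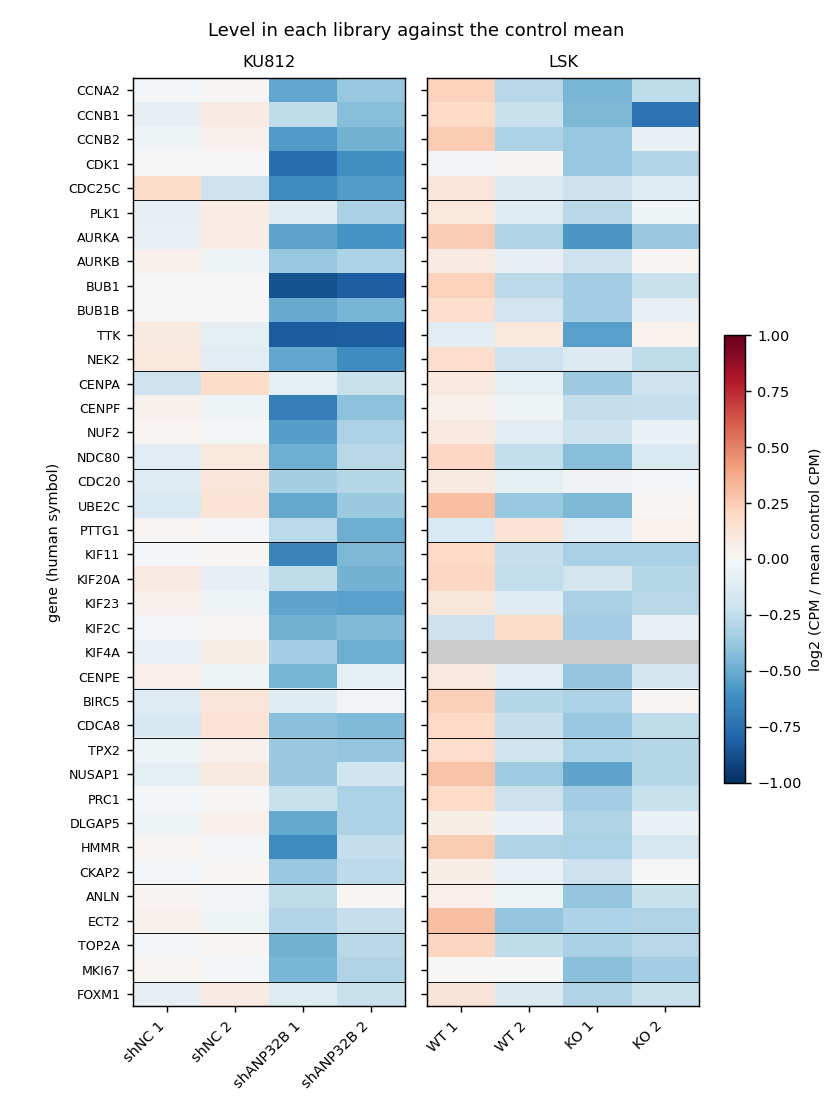
Level of each member in each library, as log2 of its CPM over the mean CPM of its control group, for KU812 (left) and LSK cells (right). Blue is below and red above the control mean, grey marks Kif4a, which the mouse tables do not hold under that symbol, and black lines part the roles. The shNC columns are near white and the shANP32B columns blue in nearly every row (ANLN in the second library, at 72.7 CPM, is above its control mean of 71.9 CPM), while in LSK cells the first WT column is red in most rows and the second WT column is closer to the KO columns.

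The count of falling members rested on the library pairs. Fewer members and fewer genes in all passed when either shANP32B library was left out, and more when either shNC library was. Each such fit leaves 1 library in a group. The member median was -0.38 without the first shANP32B library and -0.48 without the second, beside -0.0086 and -0.013 over all genes tested. The median stayed between -0.48 and -0.38 when any 1 KU812 library was left out. The first shANP32B library was the lowest of the 4 for 24 members and the second for 13. Of the 19 called members only BUB1, TTK and CDK1 passed under all 9 alternatives. Every other call was lost without the first shANP32B library. Those of AURKA, BUB1B, NEK2, KIF23 and KIF2C were also lost without the second. On library totals alone, without TMM scaling, 14 of the 19 passed, with 0.060 as the median of all genes, 1182 genes lower and 1474 higher, against 1497 lower and 1244 higher with TMM.

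**Figure D4:**
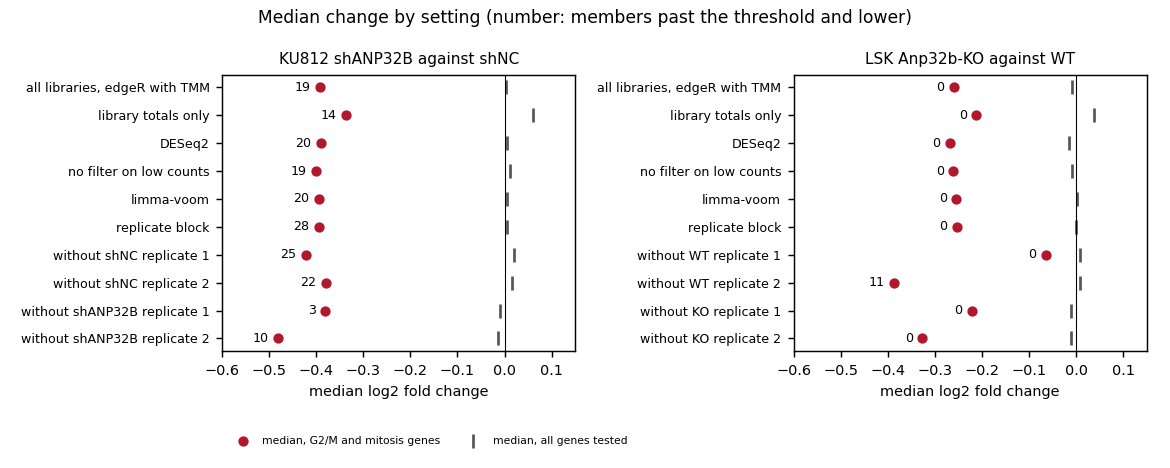
Median log2 fold change of the members (circles) and of all genes tested (bars) under each setting, for KU812 (left) and LSK cells (right), and beside each circle the number of members past the threshold and lower. In KU812 the medians lie between -0.48 and -0.34 under every setting shown, while the number of calls runs from 3 to 28. In LSK cells the median is -0.26 with all libraries and -0.064 without WT replicate 1.

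Other genes of mitosis, taken from lists chosen by role, were lower in KU812 in many but not all lists. Of all genes tested 9.06% were lower and 7.53% higher. Of 26 other kinetochore and centromere genes 8 fell and 0 rose, led by INCENP, the scaffold of the passenger complex (-0.63), and the centromere subunits CENPK (-0.80) and CENPH (-0.90). Of 18 condensin and cohesin genes 8 fell and 0 rose, with the condensin genes NCAPD2 at -0.51 and NCAPG at -0.61 and the cohesin release factor WAPL at -0.49. Of 22 other spindle, centrosome and cytokinesis genes 9 fell and 0 rose, with ASPM at -0.64, CKAP5 at -0.53 and RACGAP1, the partner of KIF23, at -0.60. Their medians were -0.27, -0.37 and -0.37. Without the first shANP32B library these counts were 3, 1 and 4, and without the second 5, 4 and 6. Without the first shNC library 13 condensin and cohesin genes fell.

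Calls among the APC/C core genes came at about the rate of all genes tested, where 9.06% were lower and 7.53% higher. Of 15 genes of the APC/C core and its inhibitors 2 fell, ANAPC1 (-0.50) and the ubiquitin enzyme gene UBE2S (-0.50), and ANAPC11, the RING subunit, rose (0.41), with a median of -0.014. None of these 3 calls held without the first shANP32B library, 1 (UBE2S) held without the second, and without the first shNC library 4 genes of the list fell and 0 rose. Of 15 mitotic entry kinase and phosphatase genes 5 fell and 1 rose. PBK, a mitotic kinase, was read at 58.5 and 61.6 CPM with shNC and at 28.4 and 26.2 CPM with shANP32B (-1.14, SE 0.13, adjusted p = 1.17e-04). NEK7 fell by 0.70 on the log2 scale, while NEK6, its close relative, rose from 0.501 and 0.488 CPM to 2.04 and 2.02 CPM (2.03, SE 0.52, adjusted p = 0.0174). The NEK6 call was lost without either shANP32B library, and 2 genes of the list then fell in each case.

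Of 17 genes of MuvB, B-MYB, the pocket proteins and E2F factors 3 fell (17.6%) and 0 rose. Of all genes tested 9.06% were lower and 7.53% higher. RBL1, the pocket protein p107, stood at -0.56, E2F1 at -0.54 and RBBP4, a histone-binding MuvB subunit, at -0.32. These calls numbered 0 without the first shANP32B library, 1 without the second and 7 without the first shNC library. Of 12 tested genes that brake G2 or mitosis 4 fell (33.3%) and 2 rose, beside the same shares of all genes. BTG2, an antiproliferative p53 target, rose from 36.7 and 68.9 CPM to 172 and 307 CPM (2.18, SE 0.27, adjusted p = 1.55e-04). PLK2, also a p53 target, fell by 1.34 on the log2 scale and CHEK1, the kinase of the G2 checkpoint, by 0.72. Without the first shANP32B library 2 genes of the list fell and 2 rose. The p21 gene CDKN1A, an inhibitor of cyclin-dependent kinases, was read at 62.3 and 80.7 CPM with shNC and at 47.7 and 76.3 CPM with shANP32B, with overlapping groups (-0.21, adjusted p = 0.509). For scale, the list of G1/S and DNA replication had 26 of 48 genes that fell and 0 that rose, with a median of -0.40 (11 without the first and 14 without the second shANP32B library).

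In Anp32b-KO LSK cells no member passed the test. All 37 had log2 fold changes below 0, from -0.59 to -0.024, as did 51.4% of all genes tested, and 0 of 14598 genes passed in either direction (0%, edgeR quasi-likelihood test). At an unadjusted p under 0.05, 4 members were lower and 0 higher, beside 322 genes lower (2.21%) and 335 higher in all. DESeq2 called 15 genes and limma-voom 0, none of them a member. The median over the members was -0.26, beside -0.0079 over all genes tested. In 15 of 37 members both KO libraries lay below both WT libraries, as did 15.6% of all genes tested.

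These values rested on the first WT library. It was the highest of the 4 for 33 of 37 members, and the members together took 0.456% of its counts, while their share was 0.381% in the other WT library and 0.34% and 0.369% with the knockout. Without it the median was -0.064 and 29 of 37 members stayed below 0. Without the second WT library the median was -0.39, beside 0.0093 over all genes tested, and 35 of 37 members were below 0. Each of these fits leaves a single WT library, so only effect sizes are given here. The second WT library lay above both KO libraries for 18 of 37 members, and the first KO library was the lowest of the 4 for 30. What part the differences of the first WT library in immunoglobulin, Rn18s-rs5 and Egr1 RNA have in these values was not tested.

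The largest values in LSK cells were led by Ccnb1 (chromosome 13, 100778650 to 100786570, minus strand, GRCm38), at 69.2 and 51.6 CPM in WT and 44.2 and 36.1 CPM in KO. Both KO libraries were below both WT libraries (-0.59, SE 0.19, adjusted p = 0.986). Aurka was read at 69.7 and 47.6 CPM in WT and 39.3 and 45.4 CPM in KO, where the second WT library was close to the second KO library (-0.47, SE 0.20). Nusap1, a spindle protein, was read at 123 and 79.0 CPM in WT and 69.9 and 82.8 CPM in KO, and its groups overlapped (-0.40, SE 0.21).

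Mki67 was the most even of these. It was read at 821 and 819 CPM in WT and 615 and 644 CPM in KO, 820 ± 1.83 against 629 ± 20.7 CPM (SD, n = 2 each; -0.38, SE 0.15, adjusted p = 0.986). Its WT libraries were equal where those of most members were not, and its value lay between -0.42 and -0.34 under all 9 alternatives. Ccna2 was read at 203 and 143 CPM in WT and 126 and 145 CPM in KO, with overlap (-0.35). Cdk1 was also close between WT libraries, at 98.4 and 102 CPM in WT and 77.0 and 81.6 CPM in KO (-0.34, SE 0.13), and ran from -0.38 to -0.29 under the alternatives.

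By role, the medians in LSK cells were -0.34 for the cyclins and CDK1 control genes, -0.20 for the kinases, -0.26 for the kinetochore, -0.29 for the 5 motors listed, -0.26 for the spindle proteins and -0.034 for the APC/C partners and securin. Bub1 and Ttk, the members that fell most in KU812, were read at 85.1 and 60.1 CPM and at 36.2 and 42.2 CPM in WT, against 57.2 and 62.4 CPM and 26.9 and 40.05 CPM in KO. Both overlapped between groups (-0.28 and -0.22). Cdc20 was nearly level, at 112 and 98.8 CPM in WT and 103 and 104 CPM in KO (-0.024). Kif4, the mouse name of KIF4A (chromosome X, 100625737 to 100727214, plus strand), was read at 65.7 and 58.1 CPM in WT and 43.3 and 52.3 CPM in KO (-0.37, SE 0.15, adjusted p = 0.986).

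The further lists gave 0 calls in LSK cells with all libraries, and at most 2 in any list without the second WT library. Of 22 other spindle, centrosome and cytokinesis genes 21 were below 0 (median -0.29). Of 18 condensin and cohesin genes 16 were (median -0.13), and of 25 tested kinetochore genes 20 (median -0.13). Of all genes tested 51.4% were below 0. Both KO libraries lay below both WT libraries for 17, 9 and 8 genes of these lists, and for 15.6% of all genes tested. Without the first WT library the medians of these lists were -0.20, -0.071 and -0.041. The G1/S and DNA replication list had 32 of 48 genes below 0 and a median of -0.065. Cdkn1a was read at 247 CPM in the first WT library, against 92.1 CPM in the second and 114 and 86.3 CPM in the KO libraries. No marker of another cell type passed the test. Of 14 hematopoietic stem cell markers 13 were above 0 (median 0.19), and of 16 mature neutrophil and monocyte markers 14 were below 0 (median -0.48), with a summed level of 1814 to 1940 CPM in WT and 1291 to 1422 CPM in KO. All 7 tested myeloid progenitor markers (median -0.17), all 6 stromal and endothelial markers (median -0.62) and 8 of 9 T and NK cell markers (median -0.92) were below 0. Summed levels overlapped between groups for the T and NK list (142 and 99.4 CPM in WT, 94.4 and 128 CPM in KO). For the myeloid progenitor list they were 9303 and 7481 CPM in WT and 5429 and 7382 CPM in KO. These groups did not overlap, but the second WT and second KO libraries were nearly equal. The stromal and endothelial sums did not overlap either (205 and 172 CPM in WT, 151 and 134 CPM in KO). Of 12 erythroid markers 8 were above 0 (median 0.21). The share of mitochondrial counts was 3.05% and 3.11% in WT and 2.13% and 2.31% in KO. The part of these in the mitotic values was not tested.

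**Figure D5:**
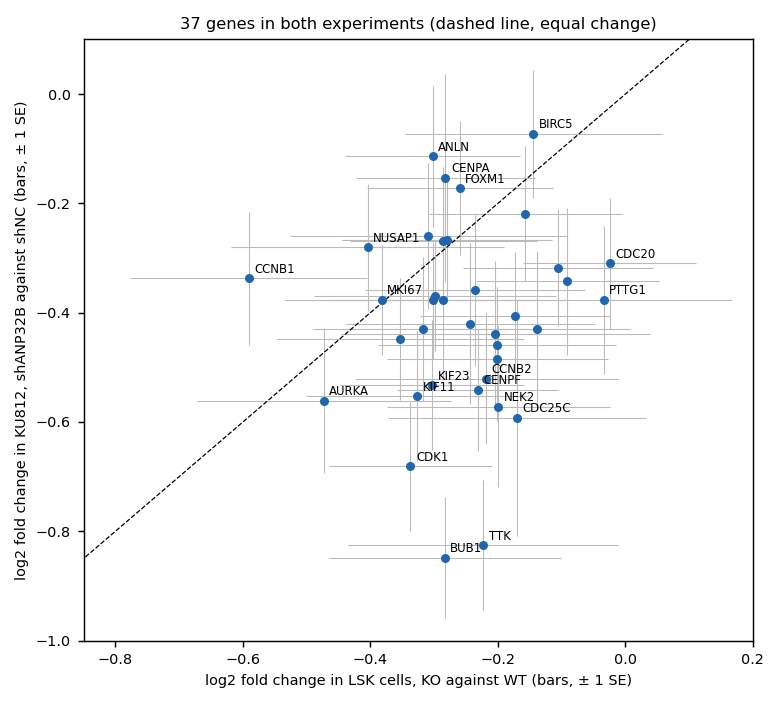
Log2 fold change of the 37 members measured in both experiments, in LSK cells (horizontal) and in KU812 (vertical), with 1 SE on each side and a dashed line of equal change. All points lie below 0 on both axes, BUB1 and TTK lie far below the line, and CCNB1 lies above it. The position along one axis says little about the other (Pearson r = 0.0785 across genes).

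Set side by side, BUB1 and TTK had the lowest values in KU812 and Ccnb1 and Aurka in LSK cells. Across the 37 members the log2 fold changes had a Pearson correlation of 0.0785 and a Spearman correlation of 0.0735, a description across genes that share libraries. The difference between the experiments was tested as an interaction over all 8 libraries, on 10771 symbols shared by the species. Of 37 members 0 passed, where 239 shared genes did (2.22%, from the same edgeR test). That count was 570 with DESeq2 and ran from 38, without the second KO library, to 719, without the second WT library. Of the members 2 had an unadjusted p under 0.05. The value was lower in KU812 for 27 of 37 members, with a median difference of -0.16, beside -9.7e-04 over all shared genes tested. How many of all shared genes had a lower value, or an unadjusted p under 0.05, was not counted. The smallest p belonged to BUB1 (KU812 minus LSK, -0.55, SE 0.22, adjusted p = 0.212) and TTK (-0.59, SE 0.25, adjusted p = 0.247), followed by CDK1 (-0.33, adjusted p = 0.346), CENPF (-0.29, adjusted p = 0.425) and NEK2 (-0.36, adjusted p = 0.457). An effect of the members that is past the threshold in KU812 and not in LSK cells was thus not shown to differ between them. BUB1 passed without the first WT library, a fit with a single WT library in which many genes outside the list passed too.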

How the data were processed

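The authors deposited 1 table per library of raw read counts by gene symbol (whole numbers, with no scaling). No listed gene has fewer than 10 counts when the 4 libraries of an experiment are summed. The submitters' processing notes list HISAT2, TopHat, Cufflinks and DESeq and the builds GRCm38 and GRCh38, without roles. Not given in the sources used here are the counting tool, the strand setting and the annotation. Reads of overlapping genes therefore cannot be told apart. RNA was taken with Trizol, per the labels' protocols.

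The mouse and the human libraries were fitted separately (edgeR 4.0.16, R 4.3.3, filterByExpr, TMM, quasi-likelihood test, Benjamini-Hochberg over all genes tested, threshold 0.05), tested on simulated data. The SE is the unmoderated coefficient over the square root of F. Alternatives were DESeq2 1.42.0, limma-voom (limma 3.58.1), library totals without TMM, no filter, a replicate block and each library left out. The members and lists were chosen with earlier results of these data known, so no list was tested as a set. All members are given. Full values follow a rule of up to 2 members per role by smallest p in KU812 (3 in roles of 6 or more), the 5 largest changes in LSK cells, 3 genes per further list and 5 for the interaction. Outside this rule, BUB1, TTK, CDK1 and CDC20 in LSK cells, CCNB1 and CENPA in KU812, CDKN1A and a few marker genes were added after their values were seen. Promoters are RefSeq windows and gene positions GENCODE M21, both GRCm38. No human coordinates were used here.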

Additional observations from a re-analysis of the deposited data

How the results depend on the processing

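With 2 libraries per group, a single library decides many calls, and counting intervals cover counting error only. In KU812 all values of called members kept their sign under the 9 alternatives, and the median moved from -0.39 to -0.34 on library totals. Leaving out 1 KU812 library gave 3 to 25 falling members, medians of -0.48 to -0.38 and 1413 to 4047 genes called. In LSK cells DESeq2 called 15 genes. Leaving out 1 LSK library gave 0 to 11 members lower, medians of -0.39 to -0.064 and 0 to 830 genes called. The 11 members and the 830 genes, called in either direction, came from the fit without the second WT library. That fit keeps only the first WT library, which stood apart, so no conclusion is drawn from its counts. No member passed when any other LSK library was left out. For the difference between experiments, BUB1 without the first WT library was the only member to pass when any 1 of the 8 libraries was left out.

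Same-numbered libraries correlated at -0.0687 in LSK cells and at 0.116 in KU812 in their deviations from the group means, and the labels give no shared source, so the numbers were not taken as pairs. With the replicate block 15 genes were called in LSK cells and 4164 in KU812, 28 members among the latter.

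Members not past the threshold that changed sign with 1 library left out had these lowest and highest values. In KU812 they were ANLN -0.27 to 0.0096, BIRC5 -0.20 to 0.049 and CENPA -0.34 to 0.046. In LSK cells they were Aurkb -0.20 to 0.014, Birc5 -0.38 to 0.14, Ccnb2 -0.48 to 0.095, Cdc20 -0.11 to 0.067, Ect2 -0.61 to 0.077, Hmmr -0.49 to 0.062, Kif20a -0.45 to 0.0087, Kif2c -0.39 to 0.0059, Nek2 -0.38 to 0.0048, Pttg1 -0.18 to 0.11, Ttk -0.54 to 0.032 and Ube2c -0.50 to 0.17. On library totals Cdc20 stood at 0.023 and Pttg1 at 0.012. The cause was not tested. The alternatives for the further lists were added after the data were seen.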
